A study of Mus musculus with 61 samples.

Results

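The comparison concerns sorted D1 nuclei of the mouse nucleus accumbens from animals that all received morphine 1 h before death and that differed in their earlier drug history. Its members are 15 of the 61 libraries of the series, chosen by their labels alone. The 7 MM libraries came from mice given morphine over 15 days, and the 8 SM libraries from mice given saline over the same days. In both groups 30 days in the home cage followed before the morphine challenge. All mice were males that carried D1-Cre and the Cre-dependent tag LSL-eGFP::L10a, in which green fluorescent protein is fused to a protein of the ribosome. The tag therefore marks cells in which the D1 driver is or was active, in any cell of the tissue punch. Nuclei were released from frozen bilateral punches and sorted by their fluorescence. The labels do not assign a morphine dose to a mouse, and do not say whether 1 library is 1 animal or a pool. The p-values below therefore measure the spread between libraries, which may in part be technical.

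The nucleus accumbens is the ventral part of the striatum, and its projection neurons fall into a D1 class, which expresses the dopamine D1 receptor with dynorphin and substance P, and a D2 class, which expresses the D2 receptor with enkephalin. Morphine acts on mu opioid receptors and raises dopamine in the accumbens, mainly by silencing inhibitory neurons that hold back dopamine cells of the midbrain. Dopamine at D1 receptors drives cyclic AMP, protein kinase A and ERK signalling, which switch on immediate-early genes such as Fos within minutes to an hour, through CREB and serum response factor at their promoters. In this setting the comparison asks whether an earlier course of morphine leaves D1 nuclei with another response to the drug after a long drug-free interval.

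Total counts ran from 11518606 to 24408219 in MM and from 14275678 to 24989966 in SM. Reads also fell on genes for olfactory and vomeronasal receptors, which belong to sensory neurons of the nose. Their density per kb was taken as background, and a gene's level is given below as its TMM-scaled CPM (the share of the library's counts, after scaling for composition) and as a multiple of the background expected over its span. Spread over all genes by length, this background would account for 53.7 ± 9.71% of counts in MM (SD, n = 7) and 60.7 ± 16.3% in SM (SD, n = 8). An exact two-sided permutation test of these shares gave p = 0.344 over 6435 regroupings. The share still ordered the libraries. The first principal component held 51.1% of the variance and followed the background share with r = 0.98 and a Spearman rho of 0.982 (permutation p = 1e-05 for each, the smallest that 100000 draws can give, adjusted p = 2e-05 over 8 relations). It held within MM with r = 0.984 and rho = 0.964 (exact permutation p = 0.00119 and 0.00278, adjusted p = 0.00136 and 0.00278) and within SM with r = 0.987 and rho = 0.976 (exact permutation p = 7.44e-05 and 0.000397, adjusted p = 0.000119 and 0.000529). It also held without the 2 libraries farthest from the median background, with r = 0.98. The component was computed on genes that include such receptor genes and others near background, so part of this relation is built in. SM replicate 2, MM replicate 3 and MM replicate 7 lay lowest, at 32.9%, 39.5% and 41.7%, and SM replicate 8 highest, at 86.0%.

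The label of the sort was checked on marker genes, in CPM without scaling factors. Drd1 ran from 29.7 to 114 CPM in the 15 libraries and from 6.71 to 14.0 CPM in the 14 D2 libraries of the same 2 treatments, with no overlap. Drd2 ran from 60.0 to 164 CPM here and from 342 to 1492 CPM in those D2 libraries. Of 8 D1 markers, Drd1, Slc35d3 and the precursors of dynorphin and substance P, Pdyn and Tac1, did not overlap with D2 libraries, whereas Eya1, Ebf1, Chrm4 and Isl1 did. Of 5 D2 markers, Drd2, Penk and Gpr6 did not overlap, whereas Adora2a and Sp9 did. Relative to background, Drd1 stood at 34.3 times and Drd2 at 2.99 times in the 15 libraries, and Penk, the enkephalin precursor and a D2 marker, at 39.2 times. None of 10 microglial, 9 endothelial or 6 oligodendrocyte precursor markers reached 2 times background. Of markers of other cells, 2 of 9 cortical glutamatergic, 2 of 12 interneuron, 2 of 12 oligodendrocyte and 1 of 10 astrocyte markers did. The mitochondrial genome gave 0.0302 ± 0.0162% of counts in MM (SD, n = 7) and 0.0270 ± 0.0120% in SM (SD, n = 8).

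**Figure D1:**
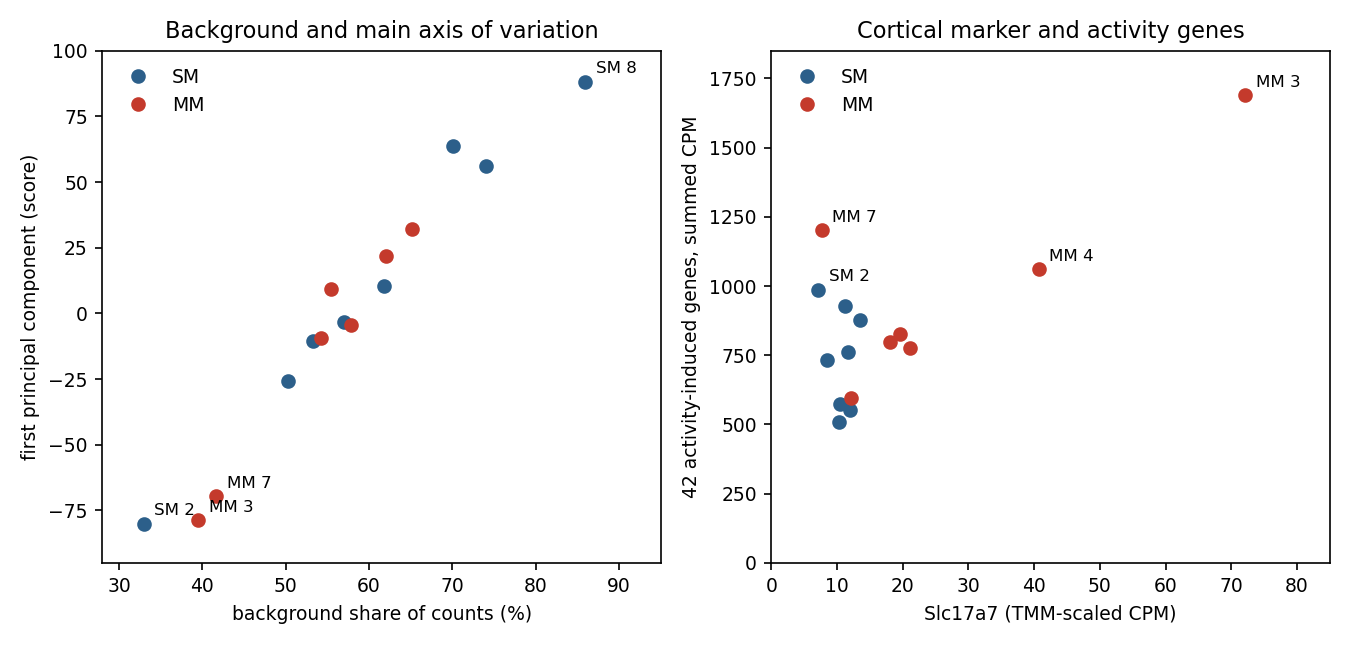
Left, the share of counts that background would account for in each library (%), against its score on the first principal component of log2 CPM. Right, Slc17a7 in each library (TMM-scaled CPM) against the summed CPM of 42 activity-induced genes. Points are libraries, red for MM and blue for SM; MM replicate 3 is highest on both axes at right, and MM replicate 7 has 1202 CPM of activity genes with 7.64 CPM of Slc17a7.

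No gene passed the test between MM and SM. Of 38449 genes tested with edgeR's quasi-likelihood test, 0 (0.0%) had a Benjamini-Hochberg adjusted p under 0.05, and the smallest adjusted p was 0.959. At an unadjusted p under 0.05, 466 genes (1.21%) were higher and 424 (1.10%) lower in MM, together 890 where an even spread of p would give 1922. DESeq2 also called 0 genes, with 475 higher and 398 lower at an unadjusted p under 0.05. In the histogram of p the lowest bin was the emptiest of 20. Adding the background share as a covariate raised the unadjusted counts to 1109 higher (2.88%) and 347 lower (0.902%), with 0 genes called. Leaving out SM replicate 2, the library with the least background, gave 3242 genes at an unadjusted p under 0.05 and 0 calls.

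**Figure D2:**
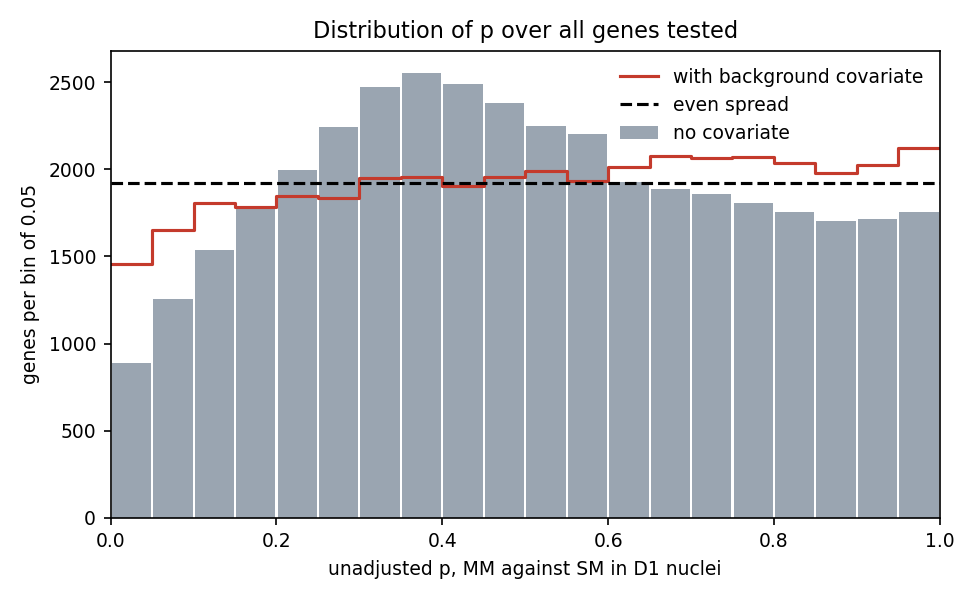
Number of genes per bin of 0.05 of the unadjusted edgeR p for MM against SM in D1 nuclei, without a covariate (bars) and with the background covariate (red line). The dashed line is an even spread of 38449 genes; the bars hold 890 genes in the first bin and the red line 1456, both under that line.

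Among the 11551 tested genes at 2 or more times background, the median standard error was 0.21 on the log2 scale. For 10224 of them (88.5%) the 95% interval of the difference lay within 2-fold in both directions, and for 5537 (47.9%) within 1.5-fold. With the background covariate, 78.2% lay within 1.5-fold. For the remainder the interval reached past 1.5-fold. These intervals are of counts that still include background, so they do not bound a difference in transcripts. Over all tested genes 1 (0.0026%) had every MM library above every SM library and 3 (0.0078%) had every MM library below. None of them was a member of the lists below, which were chosen with earlier results of these data known.

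Activity-induced transcription factors, the genes that neurons transcribe soon after a stimulus, had the largest median of the 31 lists. Of 23 listed, 22 were higher and 1 was lower in MM, with a median log2 difference of 0.47 beside 0.01 over all genes tested. Over the 11551 tested genes at 2 or more times background the median was 0.14, with 9384 of them higher. With the background covariate the median was 0.28 over the 23 factors and 0.05 over those 11551 genes. None of the 23 was called, and 8 of 23 (34.8%) had an unadjusted p under 0.05 in the higher direction, beside 1.21% of all genes. Of the 23, 14 reached 2 times background. For 4 activity-induced genes with the lowest unadjusted p the promoters are shown, 250 bases before to 50 after a RefSeq start site on GRCm38.p6, on the strand of the gene. Cyclic AMP signalling acts through CREB at the CRE and at its shorter core, so matches to these are set in capitals. They are Egr2 at chr10:67535249-67535548 on the plus strand, Npas4 at chr19:4989922-4990221 on the minus strand, Fos at chr12:85473640-85473939 on the plus strand and Btg2 at chr1:134079106-134079405 on the minus strand.
Egr2: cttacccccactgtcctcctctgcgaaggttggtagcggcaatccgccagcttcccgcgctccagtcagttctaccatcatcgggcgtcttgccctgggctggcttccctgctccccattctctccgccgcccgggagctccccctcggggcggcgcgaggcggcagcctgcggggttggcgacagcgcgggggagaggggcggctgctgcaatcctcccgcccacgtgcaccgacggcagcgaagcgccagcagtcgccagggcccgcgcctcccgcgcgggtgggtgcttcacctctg
Npas4: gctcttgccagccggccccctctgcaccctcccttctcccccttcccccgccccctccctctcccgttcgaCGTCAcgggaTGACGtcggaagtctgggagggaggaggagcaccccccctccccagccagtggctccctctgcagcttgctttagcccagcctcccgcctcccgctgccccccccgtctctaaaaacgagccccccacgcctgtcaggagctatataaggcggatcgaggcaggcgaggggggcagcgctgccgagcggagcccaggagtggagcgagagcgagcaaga
Fos: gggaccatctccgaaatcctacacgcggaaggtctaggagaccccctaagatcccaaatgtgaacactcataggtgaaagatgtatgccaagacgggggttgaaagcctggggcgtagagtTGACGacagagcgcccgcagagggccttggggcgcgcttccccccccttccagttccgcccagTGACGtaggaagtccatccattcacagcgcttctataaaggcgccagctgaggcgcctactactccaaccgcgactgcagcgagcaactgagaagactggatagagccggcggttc
Btg2: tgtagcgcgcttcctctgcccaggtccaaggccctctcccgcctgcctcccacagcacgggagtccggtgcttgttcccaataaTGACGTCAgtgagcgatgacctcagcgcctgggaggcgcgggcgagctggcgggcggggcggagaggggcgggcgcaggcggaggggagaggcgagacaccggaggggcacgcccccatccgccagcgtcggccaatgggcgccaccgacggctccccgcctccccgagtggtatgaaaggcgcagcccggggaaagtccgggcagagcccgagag
Searched on both strands, the core CRE TGACG occurred in the promoters of Npas4 (at -179 and -169 from the start site), Fos (at -129 and -66) and Btg2 (at -166 and -163), and the full CRE TGACGTCA in that of Btg2 at -166, where it contains both cores. The promoter of Egr2 held neither. The AP-1 motif TGACTCA occurred in none of the 4, and TATAAA in that of Fos alone, at -33. Among all 32851 promoters of this length, of 27025 genes, 20.8% held the core CRE, 1.79% the full CRE, 5.20% the AP-1 motif and 13.6% TATAAA. Egr2 has 5 start sites in the table, and the one nearest to the GENCODE start is printed. For Npas4 the RefSeq start site lies 345 bases from the GENCODE start, so the printed promoter falls inside the GENCODE gene. For Egr2, Fos and Btg2 that distance is 24, 0 and 35 bases.

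Npas4 (ENSMUSG00000045903.9, protein coding, chromosome 19, 4984355 to 4990316) encodes a neuronal factor that responds to calcium entry. Its level ran from 12.4 to 78.2 CPM in MM with a median of 32.9, and from 7.84 to 24.4 in SM with a median of 16.6. MM replicates 3, 4 and 7 were highest, 4 of 7 MM libraries lay above every SM library, and the other 3 overlapped with SM. The means were 37.5 ± 23.2 CPM in MM (SD, n = 7) and 15.5 ± 6.41 in SM (SD, n = 8). The log2 difference was 1.27 ± 0.37 (SE, 95% interval 0.48 to 2.06), with an unadjusted p of 0.00355 and an edgeR adjusted p of 0.959.

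Fos (ENSMUSG00000021250.13, protein coding, chromosome 12, 85473890 to 85477273) encodes the partner of Jun in AP-1 and is the usual histological mark of recent activity. It ran from 3.31 to 11.4 CPM in MM with a median of 5.40, and from 2.60 to 5.89 in SM with a median of 3.85. MM replicates 3, 4 and 7 lay above every SM library, and the remaining 4 lay among them. The log2 difference was 0.71 ± 0.23 (SE, unadjusted p = 0.0056, edgeR adjusted p = 0.959). Fosb, whose shortened product ΔFosB builds up in D1 neurons under repeated drug exposure, ran from 7.63 to 15.7 CPM in MM and from 4.33 to 11.2 in SM, with a log2 difference of 0.52 ± 0.20 (SE, unadjusted p = 0.0187). The counts do not part the 2 forms of Fosb. Their partner gene Junb differed by 0.80 ± 0.41 (SE, unadjusted p = 0.068), and Fosl2 by 0.56 ± 0.25 (SE, unadjusted p = 0.0367).

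The Nr4a family consists of nuclear receptors that act without a known hormone. Nr4a1 (ENSMUSG00000023034.7, protein coding, chromosome 15, 101254269 to 101274795) ran from 26.2 to 159 CPM in MM with a median of 60.3, and from 21.3 to 62.4 in SM with a median of 39.7. MM replicate 3 held the 159, followed by replicates 7 and 4 at 85.3 and 79.5, and the other 4 MM libraries were within the range of SM. Its log2 difference was 0.90 ± 0.34 (SE, unadjusted p = 0.019, edgeR adjusted p = 0.959). Nr4a3 differed by 0.57 ± 0.19 (SE, unadjusted p = 0.00847) and Nr4a2 by 0.31 ± 0.12 (SE, unadjusted p = 0.0237).

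The zinc finger factors of the Egr family differed in how far their libraries spread. Egr2 (ENSMUSG00000037868.15, protein coding, chromosome 10, 67535475 to 67542188) ran from 6.36 to 11.0 CPM in MM and from 5.43 to 6.93 in SM, and 6 of 7 MM libraries lay above every SM library. Its log2 difference of 0.38 ± 0.11 (SE, unadjusted p = 0.00228, edgeR adjusted p = 0.959) had the smallest SE of the family, at 2.30 times background. Egr1 ran from 15.6 to 94.8 CPM in MM and from 10.0 to 36.5 in SM, with medians of 23.5 and 23.1. Its log2 difference of 0.72 ± 0.41 (SE, unadjusted p = 0.0992) came down to 0.30 without MM replicate 3. Egr3 and Egr4 differed by 0.55 ± 0.35 and 0.68 ± 0.39 (SE, unadjusted p = 0.141 and 0.097). The member that was lower, Ier2, differed by -0.19 ± 0.20 (SE) and stood at 0.931 times background, so that its counts cannot be told from background.

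**Figure D3:**
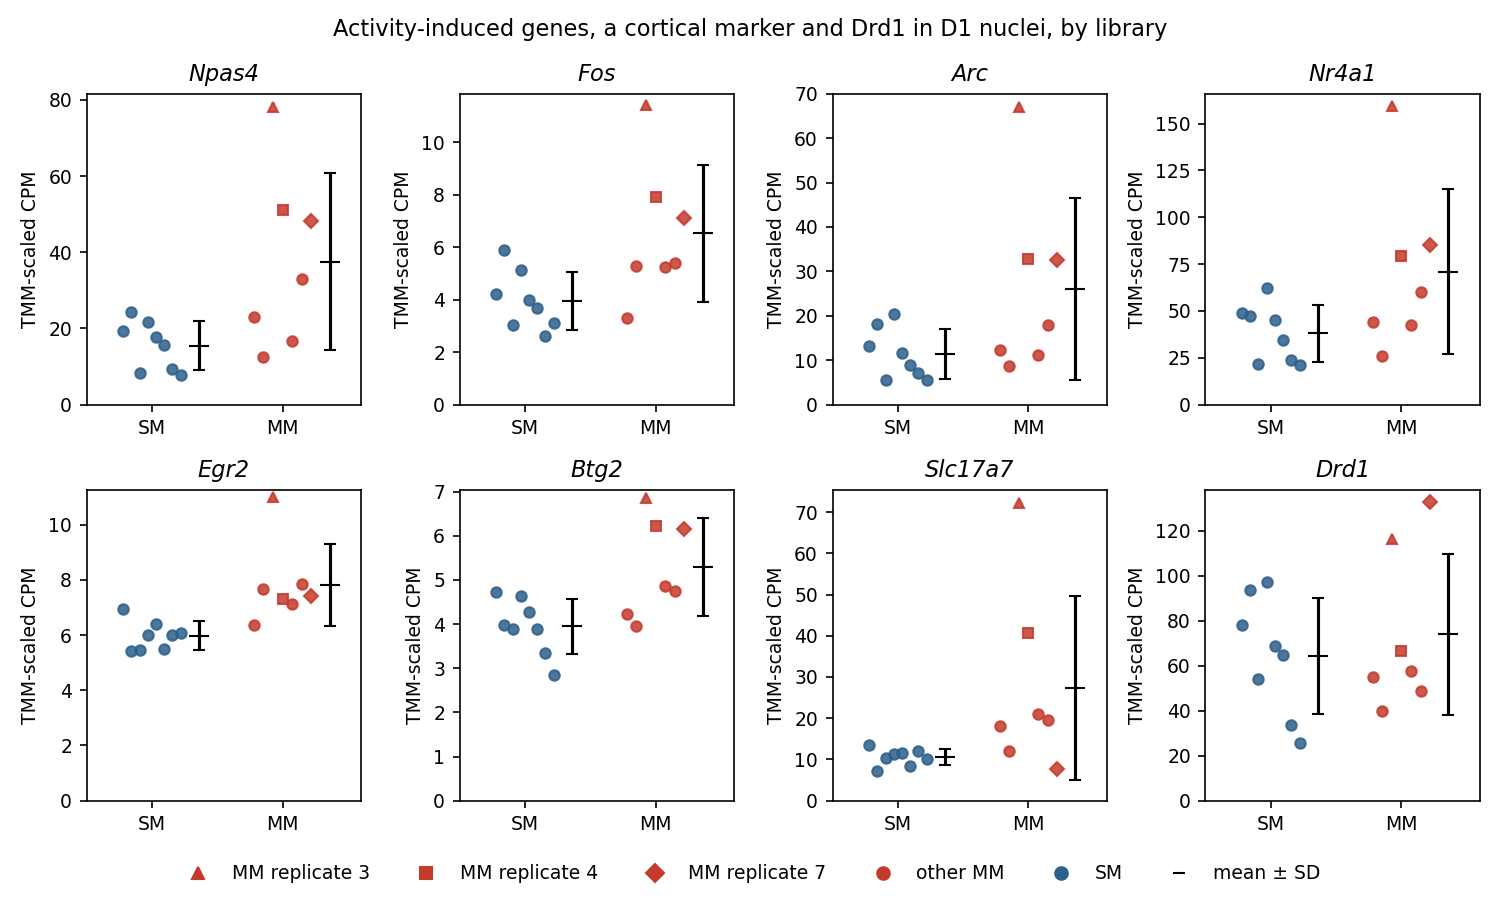
TMM-scaled CPM of 8 genes in each SM (blue, 8 libraries) and MM (red, 7 libraries) library, with mean and SD in black; MM replicates 3, 4 and 7 have their own symbols. The 6 activity-induced genes overlap between groups, with MM replicate 3 highest in each; Slc17a7 is high in MM replicates 3 and 4 and not in replicate 7, and Drd1 overlaps between the groups.

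Activity-induced effectors, the genes whose products act at synapses, in growth arrest or in signalling, leaned the same way. Of 19 listed, 17 were higher and 2 lower, with a median log2 difference of 0.28 and 3 members (15.8%) at an unadjusted p under 0.05. Arc (ENSMUSG00000022602.14, protein coding, chromosome 15, 74669083 to 74672570) acts in the removal of AMPA receptors from synapses. It ran from 8.77 to 67.0 CPM in MM, with a median of 18.0. In SM it ran from 5.57 to 20.4 CPM, with a median of 10.3. MM replicates 3, 4 and 7 lay above every SM library and the other 4 within their range. Its log2 difference was 1.20 ± 0.43 (SE, 95% interval 0.30 to 2.10, unadjusted p = 0.0125, edgeR adjusted p = 0.959). Btg2 (ENSMUSG00000020423.6, protein coding, chromosome 1, 134075170 to 134079120), a brake on cell division, ran from 3.95 to 6.84 CPM in MM and from 2.84 to 4.72 in SM, with 5 of 7 MM libraries above all SM. Its log2 difference was 0.42 ± 0.14 (SE, unadjusted p = 0.00628). Gadd45g, linked to DNA repair and demethylation, differed by 0.53 ± 0.22 (SE, unadjusted p = 0.0258). Homer1, a postsynaptic scaffold with a short activity-induced form that these counts do not part, ran from 81.2 to 256 CPM in MM and from 75.2 to 195 in SM, with a log2 difference of 0.27 ± 0.22 (SE, unadjusted p = 0.246). Bdnf and Trib1 were the lower 2, at -0.04 ± 0.12 and -0.11 ± 0.12 (SE).

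ERK feedback genes encode phosphatases and Sprouty proteins that the kinase pathway switches on against itself. Of 13, 12 were higher, with a median of 0.16, and Dusp5, a phosphatase of nuclear ERK, had the only unadjusted p under 0.05. It ran from 13.4 to 20.5 CPM in MM and from 9.75 to 15.3 in SM, with a log2 difference of 0.36 ± 0.12 (SE, unadjusted p = 0.00693). Etv5 differed by 0.21 ± 0.11 (SE) and Dusp1 by 0.12 ± 0.08 (SE). Dusp6 differed by 0.34 ± 0.21 (SE), and by 0.08 without MM replicate 3, in which it stood at 11.6 CPM against 2.76 to 5.85 in the other MM libraries.

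The values of the 42 genes in the first 2 lists varied with the libraries included. MM replicate 3 was the highest of all 15 libraries for 31 of them. With all libraries, 39 of 42 were higher, 11 had an unadjusted p under 0.05 and the median log2 difference was 0.34. Without MM replicate 3, 36 were higher, 6 had an unadjusted p under 0.05 (beside 0.646% of all genes higher) and the median was 0.19. Without MM replicates 3 and 4, 37 were higher, 2 had an unadjusted p under 0.05 (beside 0.541%), namely Egr2 and Npas4, and the median was 0.14. With the background covariate 39 were higher, 12 had an unadjusted p under 0.05 (beside 2.88%) and the median was 0.21. Their summed level ran from 595 to 1690 CPM in MM and from 508 to 987 CPM in SM, and 4 of 7 MM libraries lay within the range of SM. The 3 libraries with the least background held 1690 (MM replicate 3), 1202 (MM replicate 7) and 987 CPM (SM replicate 2). SM replicate 8, with the most background, held 508 CPM. MM replicate 4, at a background share of 54.3%, held 1060 CPM.

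Some markers of cortical glutamatergic neurons were also higher in MM. Slc17a7 (ENSMUSG00000070570.5, protein coding, chromosome 7, 45163949 to 45176142), the vesicular glutamate transporter of cortical neurons, had one of the lowest p of all genes with a level above background. It ran from 7.64 to 72.1 CPM in MM with a median of 19.6, and from 7.13 to 13.5 in SM with a median of 10.8. MM replicates 3 and 4 held 72.1 and 40.7, and replicate 7, which held 48.1 CPM of Npas4, held 7.64 of Slc17a7. MM replicates 1, 5 and 6 held 18.1, 21.1 and 19.6, so 5 of 7 MM libraries lay above every SM library. The log2 difference was 1.37 ± 0.37 (SE, unadjusted p = 0.00206, edgeR adjusted p = 0.959), and 0.57 without MM replicates 3 and 4. Of the 9 cortical markers, 6 were higher and 3 lower, with a median of 0.29 and 4 at an unadjusted p under 0.05. Besides Slc17a7 these were Neurod2 at 0.61 ± 0.17, Ntng2 at 0.33 ± 0.10 and Tbr1 at 0.29 ± 0.13 (SE), all under 2 times background. The summed level of the list was 222 to 335 CPM in MM and 184 to 252 in SM, and no member was at 0 in all libraries. Emx1, also cortical, differed by -0.01 ± 0.10 (SE). The part of these cells in the values of activity genes was not tested. In a bulk sample of nuclei, more nuclei of a kind and more RNA per nucleus cannot be told apart.

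Other cell markers gave smaller differences. Of 12 oligodendrocyte markers 10 were higher, with a median of 0.13, a summed level of 242 to 336 CPM in MM against 209 to 261 in SM, and 2 members at an unadjusted p under 0.05. One of them, Mog, a protein of the myelin surface, differed by 0.25 ± 0.12 (SE, unadjusted p = 0.0454) at 1.31 times background. The 12 interneuron markers had a median of 0.03 and a sum of 318 to 405 CPM in MM against 333 to 362 in SM. Sst, the somatostatin gene, differed by 0.69 ± 0.39 (SE), and Npy by 0.31 ± 0.17 (SE). Medians were 0.06 over 10 astrocyte, 0.02 over 10 microglial and -0.06 over 9 endothelial markers, beside 0.01 over all genes.

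The same contrast in D2 nuclei, from 7 MM and 7 SM libraries that share no sample with D1, gave other values for the activity genes. No gene was called in D2 either, with 3.97% of genes higher and 2.64% lower at an unadjusted p under 0.05. There 10 of 23 transcription factors and 10 of 19 effectors were higher, with medians of -0.05 and 0.03. With the background covariate 4 of 23 and 8 of 19 were higher there, with medians of -0.13 and -0.08. Npas4 differed by 0.02 ± 0.21 in D2, Fos by -0.06 ± 0.15, Arc by -0.13 ± 0.26, Nr4a1 by 0.02 ± 0.12 and Egr2 by -0.25 ± 0.12 (SE). The difference between the classes was itself tested as an interaction over 41013 genes in 29 libraries, and 0 genes (0.0%) were called, with 361 (0.880%) at an unadjusted p under 0.05 and more positive in D2 and 401 (0.978%) more negative. Among the more negative were 8 of 23 transcription factors, 2 of 19 effectors and 2 of 13 ERK feedback genes. This interaction contains the D1 libraries compared above, so its values are not independent of the D1 differences of these genes. Egr2 had the smallest unadjusted p in that direction among the genes open to naming, with -0.60 ± 0.15 (SE, D2 minus D1, unadjusted p = 0.000335, edgeR adjusted p = 1). Slc17a7 stood beside it with -1.60 ± 0.43 (SE, unadjusted p = 0.000966), Dusp5 with -0.48 ± 0.15, Npas4 with -1.21 ± 0.47, Arc with -1.29 ± 0.54 and Fos with -0.74 ± 0.29 (SE). Nobox and Igfbp5 completed the 5 negative genes with the smallest p under the naming rule, at -0.46 ± 0.13 and -0.35 ± 0.10 (SE). The 5 positive genes with the smallest p were Shbg, Chil5, Krt20, Kcnip4 and Krt12, from 0.30 to 0.63, with unadjusted p from 0.00783 to 0.0411.

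**Figure D4:**
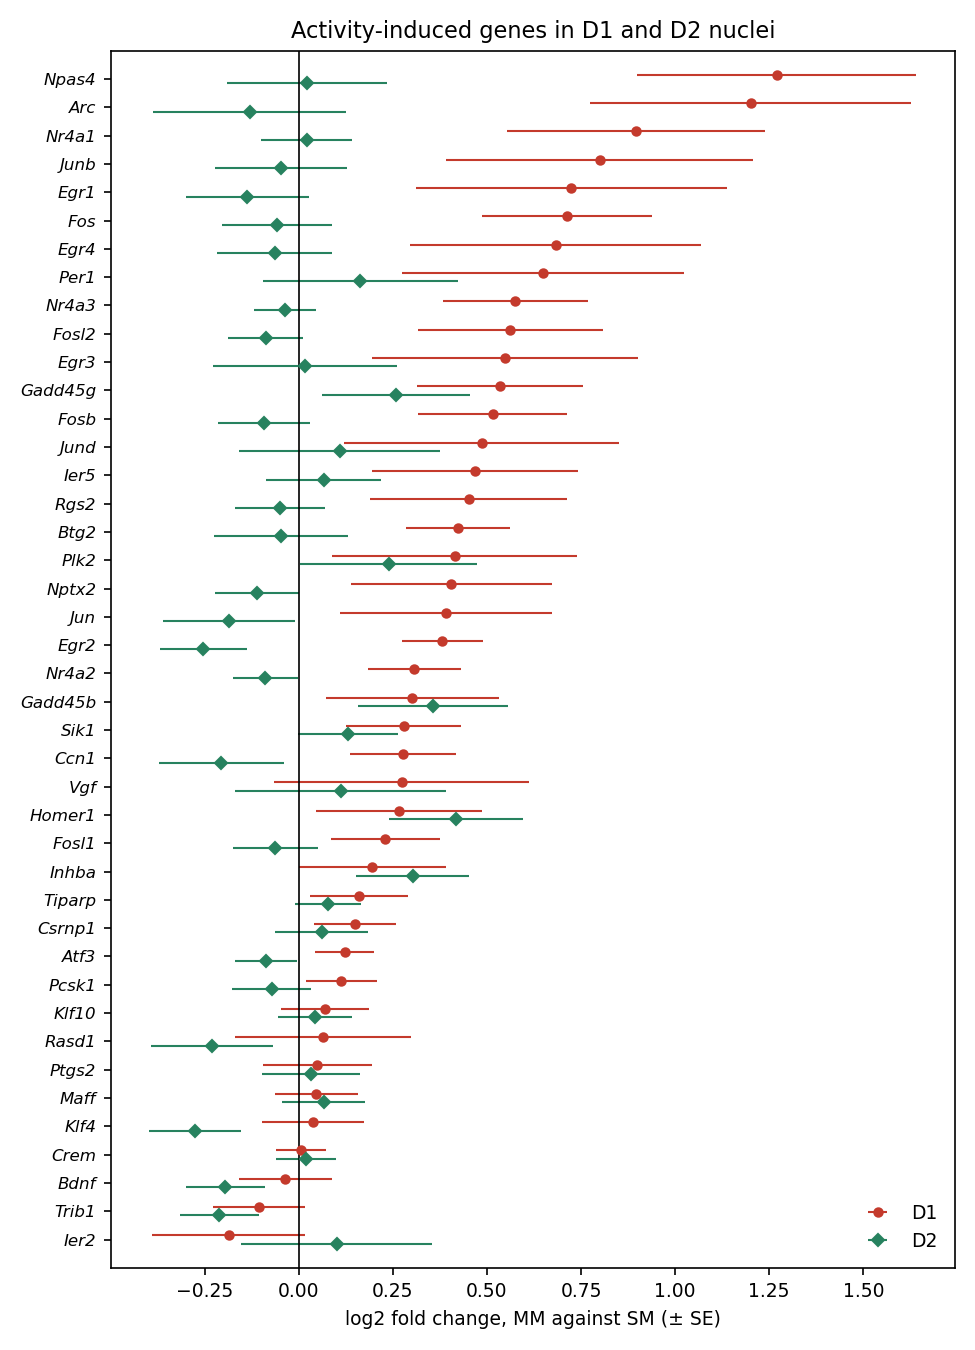
Log2 fold change of MM against SM with its SE for 42 activity-induced genes in D1 nuclei (red circles, 7 and 8 libraries) and D2 nuclei (green diamonds, 7 and 7 libraries). In D1 the values run from -0.19 for Ier2 to 1.27 for Npas4 and 39 of 42 lie above 0; in D2 20 of 42 do.

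The history effect can also be read after a saline challenge, in 9 MS and 8 SS libraries of D1 nuclei that share no sample with MM and SM. SS replicate 1 stood apart with a background share of 7.43%, against 36.3 to 84.0% in the other 16 libraries, so values are given with and without it. With all libraries 3 of 23 transcription factors and 0 of 19 effectors were higher in MS, with medians of -0.29 and -0.36. Without SS replicate 1, 11 of 23 and 7 of 19 were higher, with medians of -0.02 and -0.04. With all libraries Npas4 differed by -0.54, Fos by -0.31, Nr4a1 by -0.86 and Slc17a7 by -2.33 on the log2 scale. Without SS replicate 1, Npas4 differed by -0.13, Fos by -0.06, Nr4a1 by -0.20 and Slc17a7 by -0.40 on the log2 scale. The interaction of history and challenge called 0 of 41083 genes (0.0%) with all libraries, with 552 (1.34%) higher and 400 (0.974%) lower at an unadjusted p under 0.05. Without SS replicate 1 it called 0 of 41050, with 0.738% higher and 0.797% lower. In that fit 20 of 23 transcription factors were more positive after morphine, 7 of them at an unadjusted p under 0.05, and the median was 0.42. With all libraries it was also 20 of 23, with 9 at an unadjusted p under 0.05 and a median of 0.74. Npas4 had 1.39 ± 0.52, Nr4a1 1.08 ± 0.44, Egr2 0.52 ± 0.16, Uap1l1 0.48 ± 0.15 and Slc17a7 1.77 ± 0.46 (SE, morphine minus saline challenge), all with an edgeR adjusted p of 1. These were the 5 positive genes with the smallest p under the naming rule with all libraries, where Npas4 had 1.82 ± 0.56 and Slc17a7 3.71 ± 0.84 (SE). The 5 negative genes with the smallest p, Ccl5, Shbg, AC132253.6, AC113961.1 and Gpr101, ran from -0.86 to -0.39 with unadjusted p from 0.00986 to 0.0942. Both fits of this interaction contain the MM and SM libraries, so their values are not independent of the MM against SM differences above.

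Receptors and peptides of the opioid system overlapped between the groups. Oprm1, the mu opioid receptor through which morphine acts, ran from 118 to 140 CPM in MM and from 118 to 150 in SM, but at 1.07 times background these counts say little about its transcripts. Oprk1, the kappa receptor and the target of dynorphin, ran from 14.3 to 40.0 CPM in MM and from 12.7 to 31.9 in SM, with a log2 difference of 0.20 ± 0.22 (SE, 95% interval -0.27 to 0.67). Pdyn differed by 0.28 ± 0.31 and Penk by 0.19 ± 0.39 (SE), with intervals of -0.38 to 0.94 and -0.64 to 1.03. Over the 8 listed genes 5 were higher, with a median of 0.07 and none at an unadjusted p under 0.05.

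The dopamine and cyclic AMP cascade, from receptor to kinase, had no member past the test. Drd1 (ENSMUSG00000021478.6, protein coding, chromosome 13, 54051183 to 54055705) ran from 39.7 to 133 CPM in MM with a median of 57.8, and from 25.6 to 97.1 in SM with a median of 66.9. MM replicates 7 and 3 were highest, SM replicates 8 and 7 lowest, and all others overlapped. Its log2 difference was 0.20 ± 0.31 (SE, 95% interval -0.46 to 0.86), and -0.07 with the background covariate. Tac1 differed by 0.46 ± 0.34, Drd2 by 0.03 ± 0.26, the adenylyl cyclase gene Adcy5 by 0.24 ± 0.41 and the phosphodiesterase gene Pde10a by 0.32 ± 0.34 (SE). Of the 33 genes 31 were higher with a median of 0.16, none had an unadjusted p under 0.05, and with the background covariate 19 were higher with a median of 0.02. Of the 8 D1 markers 6 were higher with a median of 0.22, and with the covariate 2 were, with a median of 0.00.

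Genes of the synapse and of excitability had positive medians, as did all genes at 2 or more times background, at 0.14. Medians were 0.11 over 18 ionotropic glutamate receptors, 0.10 over 7 metabotropic ones, 0.11 over 14 GABA receptors, 0.20 over 24 potassium channels, 0.15 over 15 calcium and sodium channels, 0.23 over 16 postsynaptic scaffolds, 0.13 over 28 adhesion genes and 0.27 over 26 genes of synaptic vesicles. Over the members at 2 or more times background they ran from 0.15 for GABA receptors to 0.24 for potassium channels, 0.26 for scaffolds and 0.29 for vesicle genes. With the background covariate these medians lay between 0.02 and 0.09. In D2 nuclei without the covariate they lay between 0.23 and 0.38, beside 0.10 over genes at 2 or more times background. In D2 nuclei with the covariate they lay between -0.02 and 0.11, beside -0.03 over those genes. RGS genes, which shorten G protein signals, had 0.12 in D1 and 0.17 in D2, and with the covariate 0.03 and -0.015. The members with an unadjusted p under 0.05 were few. Grin3b, an NMDA receptor subunit at 1.78 times background, ran from 4.20 to 9.30 CPM in MM and from 3.15 to 5.58 in SM, with a log2 difference of 0.53 ± 0.17 (SE, unadjusted p = 0.00676). Its gene overlaps Tmem259 on the other strand, and the strand setting of the counts is not given. The syntaxin gene Stx1a differed by 0.30 ± 0.13 (SE, unadjusted p = 0.0288) and by 0.16 without MM replicate 3. The scaffold gene Homer3, at 1.19 times background, differed by 0.23 ± 0.10 (SE, unadjusted p = 0.0384).

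Heat shock and ribosomal protein genes had the largest medians after the activity-induced transcription factors. All 18 heat shock and chaperone genes were higher, with a median of 0.39 and none at an unadjusted p under 0.05. Hspa8, the constitutive Hsp70, ran from 58.7 to 240 CPM in MM and from 33.5 to 119 in SM, with a log2 difference of 0.53 ± 0.37 (SE) that came to 0.17 without MM replicate 3. The list summed to 1260 CPM in MM replicate 3, 962 in MM replicate 7 and 821 in SM replicate 2, the 3 libraries with the least background, and to 287 to 652 CPM in all others. All 35 cytosolic ribosomal protein genes were higher with a median of 0.35, and 4 (11.4%) had an unadjusted p under 0.05. Among these, Rpl13a differed by 0.58 ± 0.26 and Rpl23 by 0.51 ± 0.23 (SE), and both host small nucleolar RNAs in their introns. All 36 gene models of nuclear oxidative phosphorylation were higher with a median of 0.22. With the background covariate the 3 medians were 0.15, 0.19 and 0.06. Without MM replicate 3 they were 0.13, 0.17 and 0.09, beside 0.07 over genes at 2 or more times background. In that fit 0 of the ribosomal protein genes had an unadjusted p under 0.05. With all libraries 81.2% of genes at 2 or more times background were higher, and 2.32% were so at an unadjusted p under 0.05. The 7 mitochondrially encoded genes tested, of 13 listed, had a median of 0.00 with 4 higher and 3 lower.

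Among regulators of longer reach, 33 of 38 chromatin genes were higher with a median of 0.12. So were 17 of 18 clock genes with 0.19 and 13 of 15 glucocorticoid-responsive genes with 0.03. None of these genes had an unadjusted p under 0.05. Over genes at 2 or more times background 81.2% were higher, with a median of 0.14. With the background covariate 25 of 38, 14 of 18 and 9 of 15 were higher, with medians of 0.01, 0.04 and 0.04. Per1, a clock gene that cyclic AMP and glucocorticoids also induce, ran from 27.9 to 139 CPM in MM and from 16.2 to 79.0 in SM, with a log2 difference of 0.65 ± 0.38 (SE, unadjusted p = 0.103). The kinase gene Sgk1, at 105 to 205 CPM in MM and 97.9 to 208 in SM, differed by 0.02 ± 0.16 (SE), and Fkbp5, a chaperone of steroid receptors at 1.55 times background, by 0.00 ± 0.07 (SE). Both are induced by glucocorticoids in many tissues. For Sgk1 the 95% interval of -0.31 to 0.34 leaves out a difference of 1.5-fold in counts, which include background.

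**Figure D5:**
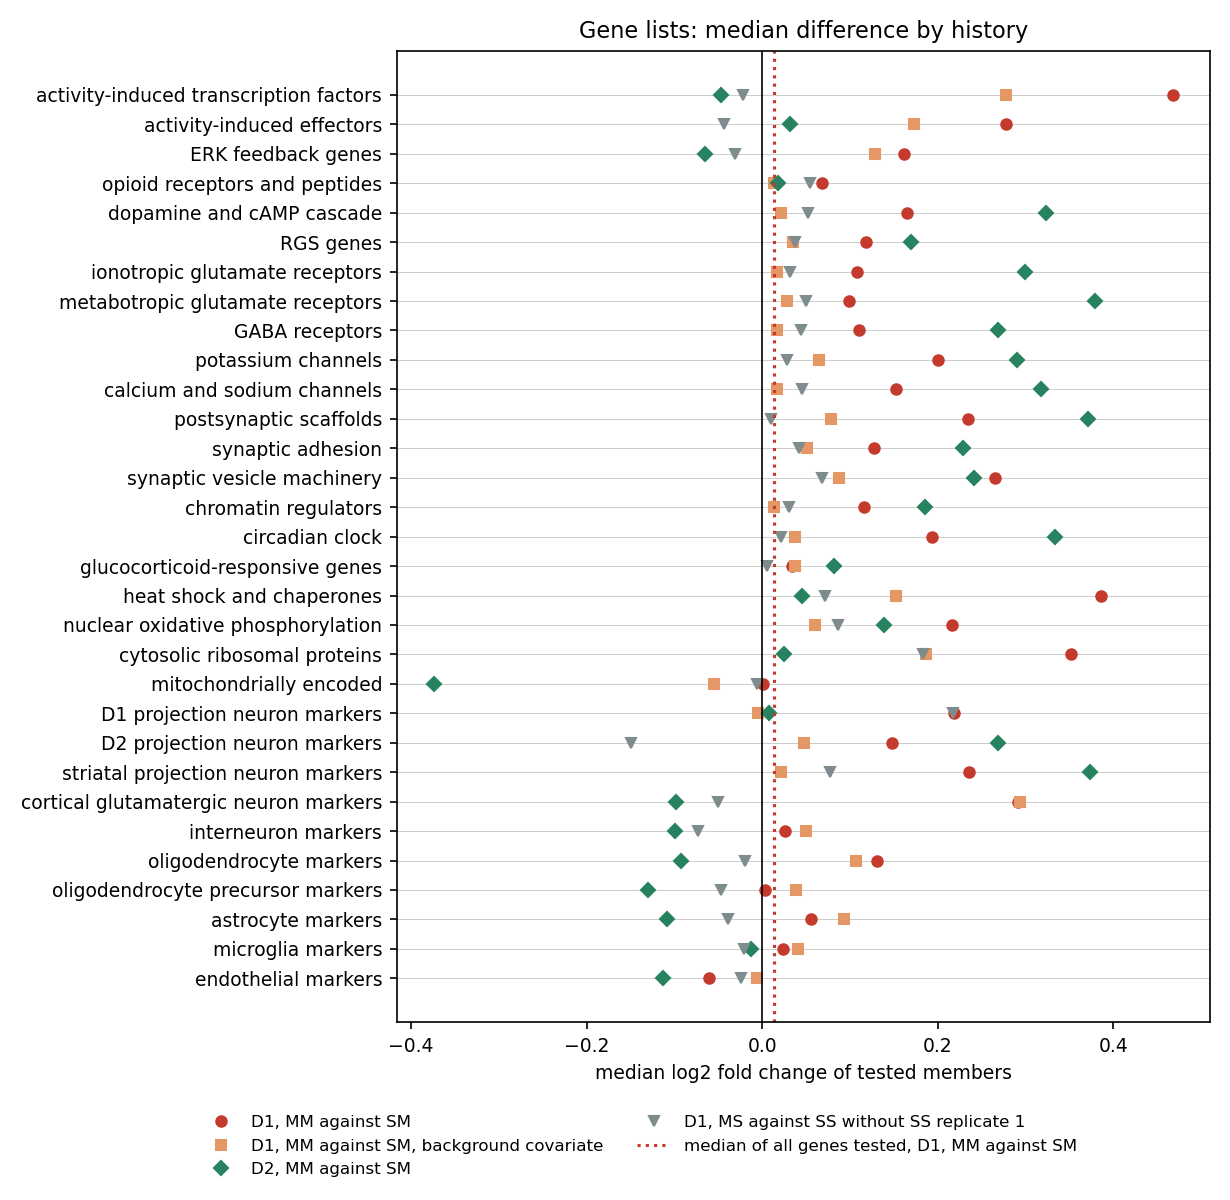
Median log2 fold change of the tested members of 31 gene lists for MM against SM in D1 (red), the same with the background covariate (orange), MM against SM in D2 (green) and MS against SS in D1 without SS replicate 1 (grey). The dotted line is the median of all genes tested in D1, 0.01; the red points lead for activity-induced transcription factors (0.47), heat shock genes (0.39) and ribosomal protein genes (0.35), and most move toward 0 with the covariate.

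The remaining genes with the lowest p under the naming rule belonged to no list. In the higher direction these were Zfp575, Coa3, Uap1l1, Slc29a2 and Chrd beside the 5 genes already described. Zfp575, Uap1l1, Slc29a2 and Chrd stood at 2.18 to 2.32 times background, near the minimum of 2, and Coa3 at 4.11 times. Zfp575, a zinc finger gene that overlaps Ethe1 on the other strand, ran from 3.88 to 4.56 CPM in MM and from 2.68 to 3.98 in SM, with 6 of 7 MM libraries above all SM. Its log2 difference was 0.34 ± 0.10 (SE, unadjusted p = 0.00296), and 0.33 without MM replicates 3 and 4. Coa3, an assembly factor of cytochrome oxidase that overlaps Cntd1 on the other strand, ran from 1.82 to 3.48 CPM in MM and from 1.18 to 2.33 in SM, with a log2 difference of 0.59 ± 0.18 (SE, unadjusted p = 0.00399). Slc29a2, a nucleoside transporter, and Chrd, a secreted antagonist of BMP signals, both differed by 0.42 ± 0.14 (SE), and Uap1l1 by 0.32 ± 0.10 (SE). For these 5 genes the values without MM replicate 3 lay between 0.27 and 0.53.

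In the lower direction the 10 genes with the smallest p had unadjusted p from 0.035 to 0.137. The first 2 were Pramef20 at -0.25 ± 0.11 and Ivl, the involucrin gene of skin, at -0.36 ± 0.17 (SE). The other 8 were AC113961.1, Ighg1, AC132253.6, AC147219.2, BC051077, Cldn34a, Tmem177 and Zfp985, with log2 differences from -0.32 to -0.15. Of these 10, 9 stood at 2.01 to 2.42 times background and Cldn34a at 20.9 times.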

How the data were processed

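RNA was measured in sorted nuclei. Raw counts per gene were deposited, made by the authors with featureCounts on mm10, with DESeq2 also named, per the submitters' processing notes. No source used here names the aligner, the tool versions or the strand setting. The authors also deposited FPKM values, used only to check gene spans: 54281 of 54281 lengths equalled the whole gene span in GENCODE M21 within a relative tolerance of 1e-06. Of 55401 identifiers, 54349 matched that release with their version, and 260 had no symbol.

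Groups came from the sample titles. MM and SM were compared with edgeR 4.0.16 in R 4.3.3 (TMM, filterByExpr by group, robust quasi-likelihood, two-sided), called at a Benjamini-Hochberg adjusted p under 0.05. The interactions with cell class (29 libraries) and with challenge (32 libraries) were fitted alike. Background is the count density over 1466 olfactory and vomeronasal receptor genes. Principal components used log2 CPM with a prior count of 2. Alternatives included limma 3.58.1 (voom with sample weights), DESeq2 1.42.0, other filters and scaling, the background covariate, the replicate block and leaving out each library. Counts less background were tested with limma on log2(CPM + 1). The test was checked on simulated counts.

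Named genes are the 10 with the smallest p per direction at a mean of at least 1 log2 CPM and 2 times background, fixed genes, and 3 per list, 117 in all, with 5 per direction for each interaction; gene models named Gm with digits, Rik and -ps names, and mitochondrial and ribosomal names (mt-, Rpl, Rps, Mrp) were left out of the first and last. Other genes named were chosen after their values were seen, and a few genes are not reported here. The members and lists were chosen with earlier results of these data known. Promoters are from RefSeq on GRCm38.p6; coordinates of genes are on mm10. Intervals cover the spread between libraries.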

Additional observations from a re-analysis of the deposited data

Results flagged for a closer look

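Of 300 groups of libraries checked for a single value far from the rest, 17 held one, where about 1 in 20 would by chance. Most fell in 2 libraries with little background. In MM replicate 3, the activity-induced genes Arc at 67 CPM (8.76 to 32.7 in the other 6 MM libraries), Egr2 at 11 CPM (6.36 to 7.87) and Gadd45g at 5.7 CPM (2.68 to 3.84) stood above the rest. So did the ERK phosphatase gene Dusp6 at 11.6 CPM (2.76 to 5.85), the syntaxin gene Stx1a at 43.2 CPM (24.2 to 30.8) and the summed oligodendrocyte markers at 336 CPM (242 to 265). AC147219.2 stood below, at 1.47 CPM (1.78 to 1.98).

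In SM replicate 2, the D2 markers Drd2 at 199 CPM (56.5 to 110 in the other 7 SM libraries) and Adora2a at 59.6 CPM (17.5 to 33.9) stood above the rest, while Drd1 lay within the range of its group. The kainate receptor gene Grik3 stood at 392 CPM (181 to 257). Summed ionotropic glutamate receptors came to 10806 CPM (4442 to 7280), calcium and sodium channels to 10140 CPM (3587 to 6637), chromatin regulators to 5895 CPM (2669 to 4091) and glucocorticoid-responsive genes to 1177 CPM (777 to 942). In SM replicate 3, mt-Nd2 stood at 17.4 CPM (3.93 to 9.89) and the tested mitochondrially encoded genes summed to 136 CPM (42.9 to 86). In MM replicate 2, AC113961.1 stood at 2.45 CPM (1.6 to 1.96).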

How the results depend on the processing

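All 27 alternatives for MM against SM called 0 genes, as did all 38 for the difference between D2 and D1. Of 41 for the difference between challenges, limma voom called 1 gene, Gm2225 (voom adjusted p = 0.0356, edgeR 0.782), and the others 0. Genes at an unadjusted p under 0.05 numbered 890 and came to 1550 without the filter on low counts, 1595 with voom, 1456 with the background covariate, 343 with the replicate block, 322 among genes at 2 times background, 293 after background subtraction, 550 in a fit of all 32 D1 libraries and 512 without MM replicates 3 and 4. Leaving out 1 library gave 542 (without SM replicate 8) to 3242 (without SM replicate 2), with 584 without SM replicate 3. For the difference between challenges 952 such genes ran from 596 to 3796 with 1 library left out, outside 1.5 times without MS replicate 2 (3796), SM replicates 2 (2252) and 8 (596), and SS replicates 1 (630), 7 (2033), 8 (1623) and 6 (1453). With DESeq2 there were 2031. For D2 minus D1, 762 came to 2261 with voom and 2087 with the background covariate. Replicate numbers showed no pairing of whole profiles. The correlation of same-numbered MM and SM libraries ran from -0.63 to 0.01, and 0 of 7 correlated best with their own number. The main axis of these profiles followed the background share, so this check cannot decide on a pairing by batch. The block changed no call. Of the 117 named genes 16 changed sign under some alternative, Drd1, Drd2, Sgk1 and Fkbp5 among them, and of 31 list medians 7 did. The background subtraction, the 2-times filter, the joint block and covariate and the removal of MM replicates 3 and 4 were chosen after seeing the data. Background takes over 1 in 2 counts in most libraries, so counts of genes near it cannot be told from background. The median SE of genes at 2 or more times background was 0.21, and 0.12 with the background covariate at the same total counts.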

Other observations

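Short structural RNAs, which no list covered, held many of the largest differences; this class was chosen after its values were seen. Of the 11551 genes at 2 or more times background, 23 differed by more than 1 on the log2 scale. Most were models of small nuclear, nucleolar or ribosomal RNA, such as the spliceosomal U5 gene Rnu5g at 1.06, and Bc1, a neuronal RNA that represses translation, was at 1.11. Of 231 small nucleolar RNA genes tested, 198 were higher and 63 had an unadjusted p under 0.05 in that direction, with a median log2 difference of 0.61. Over all genes tested 1.21% were higher at an unadjusted p under 0.05, and over genes at 2 or more times background 2.32% were, with 81.2% of those genes higher. Of 69 small nuclear RNA genes 56 were higher, 16 of them at an unadjusted p under 0.05, with a median of 0.43. With the background covariate these medians were 0.47 and 0.39. Without MM replicates 3 and 4 they were 0.49 and 0.39, and without MM replicate 7 they were 0.44 and 0.33. In D2 nuclei they were 0.15 and 0.00, and in D1 after a saline challenge, without SS replicate 1, 0.14 and 0.25.

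The summed level of the small nucleolar RNA genes ran from 250.7 to 920 CPM in MM and from 185 to 567.6 CPM in SM, and that of the small nuclear RNA genes from 280 to 1557 CPM and from 182 to 770 CPM. In both classes MM replicates 1, 2, 3, 4 and 7 lay above all SM libraries and MM replicates 5 and 6 within their range. None of these genes was called. Many have near-identical copies or lie in introns of host genes, so their counts are uncertain, and the selection of short RNA during purification was not measured.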
